A study of Mus musculus with 11 samples.

Results

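The genes described here are 10 components of the actomyosin contractile machinery: *Cald1*, *Cnn2*, *Tagln*, *Tagln2*, *Acta2*, *Tpm1*, *Tpm2*, *Tpm4*, *Myh9* and *Myl9*. They were chosen by their RNA levels, known from earlier results of these data, in wounded WT keratinocytes beside unwounded WT and wounded *Grhl3*-cKO keratinocytes, so both of these comparisons are given for them as a description, without a test. All 10 were found among the 24421 genes listed in the count tables. All 10 also passed the filter on low counts that left 14045 genes for testing, although *Tagln* reached 10 counts in 6 of the 7 RNA libraries and *Myl9* and *Acta2* in 5.

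The study examined how the transcription factor GRHL3 acts in keratinocytes that migrate into a skin wound. RNA was sequenced from 7 libraries of sorted epidermal keratinocytes, 2 of unwounded WT, 2 of wounded WT, 1 of unwounded *Grhl3*-cKO and 2 of wounded *Grhl3*-cKO, and open chromatin was profiled by ATAC-seq, which marks DNA reached by a transposase, in 1 library per condition pooled over several wounds. The mice were C57BL/6 by the labels and C57BL/6J by the study's methods, 8 weeks old, with the genotype labelled WT or GRHL3 KO. By the study's methods, littermates of both sexes were used, and controls and knockouts both carried *Krt14*-Cre, a recombinase driven by the keratin 14 promoter of basal keratinocytes, with *Grhl3* floxed in the knockouts alone. Wounded keratinocytes came from the margin of punch wounds of back skin 3 days after wounding and unwounded ones from distant skin, sorted for the integrin CD49F and against CD45, CD31 and TER119.

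Actomyosin contracts when bundles of nonmuscle myosin II pull on actin filaments. Tropomyosins lie along the filament and set which partners reach it, caldesmon, calponins and transgelins bind its side and restrain or stabilise it, and phosphorylation of the myosin light chains switches the motor on. In skin wounds, keratinocytes carry actin cables and stress fibres at the advancing front, whereas smooth muscle actin, transgelin and the smooth muscle light chain are best known from smooth muscle, pericytes and myofibroblasts.

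The RNA libraries held 15488699 and 16807451 counts on genes in unwounded WT replicates 1 and 2, 16653948 and 15418631 in wounded WT replicates 1 and 2, 13497283 in unwounded *Grhl3*-cKO replicate 2, and 15223569 and 14279568 in wounded *Grhl3*-cKO replicates 1 and 2. The unwounded *Grhl3*-cKO library is numbered 2 by its title and 1 by the name of its deposited table, and the title was followed. Levels are given as CPM, the counts of a gene scaled by these totals to a common library size, on which 1 count equalled 0.0595 to 0.0741 CPM. A gene at 0 counts could have had a level of up to 0.178 to 0.222 CPM, the level of 3 counts, which covers counting error only. Replicates of the same group differed far beyond what counting alone gives. Their chi-square divided by its degrees of freedom was 29.2 in unwounded WT, 39.9 in wounded WT and 34.9 in wounded *Grhl3*-cKO.

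The labels were checked against the data before the contractile genes were read. Basal keratinocyte markers (6 of 6 measured, *Krt14* most abundant) summed to 34663 and 39054 CPM in unwounded WT, 30890 and 44746 in wounded WT, 37006 in unwounded *Grhl3*-cKO and 42911 and 36239 in wounded *Grhl3*-cKO. Suprabasal markers (5 of 6 measured, *Krt1* most abundant) summed to 5890 and 6497, 3398 and 5057, 9059, and 6362 and 8015 CPM in the same order. Both sets were abundant in all 7 libraries. Of the 5 suprabasal markers, 2 (*Krt1* and *Krt10*) were lower in wounded than in unwounded WT and 3 (these and *Dsg1a*) were higher in wounded *Grhl3*-cKO than in wounded WT at an unadjusted P under 0.05 in edgeR's test. *Krt1* had log2 fold changes of -0.66 (unadjusted P = 0.00551) and 0.77 (unadjusted P = 0.00177) in these comparisons. The part of differentiated cells in the levels of the contractile genes was not tested.

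The targeted gene, *Grhl3*, had 1893 and 1398 counts in unwounded WT, 1831 and 1388 in wounded WT, 1029 in unwounded *Grhl3*-cKO and 1765 and 1491 in wounded *Grhl3*-cKO. It was not lower in the wounded libraries labelled *Grhl3*-cKO, with a fitted log2 fold change of 0.17 against wounded WT. Reads of the floxed exons are not separated from the rest of the gene in these counts, and the genotype used here is that of the label. The unwounded *Grhl3*-cKO library stood apart in another respect. It held 14854 counts of *Xist*, the RNA of the inactive X chromosome, against 3 to 32 in the other libraries, and 0 counts of *Ddx3y*, *Eif2s3y*, *Kdm5d* and *Uty* together, against 2580 to 3589. Every comparison with unwounded *Grhl3*-cKO rests on this single library, in which sex and condition cannot be told apart.

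Per kilobase of exon, the 10 genes spread widely in abundance. By the median over the 7 libraries, *Tpm4* stood at 306 CPM per kb, *Tagln2* at 219 and *Myh9* at 199. *Tpm2* followed at 77.7 CPM per kb, *Cnn2* at 45.2 and *Tpm1* at 30.0. *Cald1* was lower at 3.94 CPM per kb, and *Acta2* at 1.06, *Myl9* at 0.889 and *Tagln* at 0.493 were the least abundant. The ranges over libraries of *Tpm4* (202 to 366 CPM per kb), *Tagln2* (165 to 236) and *Myh9* (145 to 249) overlapped, but within each of the 7 libraries *Tpm4* was above both others, while *Tagln2* was above *Myh9* in 4. Likewise *Tpm2* (39.9 to 99.8 CPM per kb) was above *Cnn2* (33.2 to 46.6) and *Tpm1* (25.1 to 51.9) in every library, and *Cnn2* was above *Tpm1* in 6. *Cald1* (2.54 to 13.4 CPM per kb) lay below every library of *Tpm1* and, library by library, above *Acta2* (0.0337 to 7.52), *Myl9* (0.128 to 4.29) and *Tagln* (0.292 to 5.98), whose order among themselves varied between libraries.

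*Cald1* (chr6:34598500-34775473) encodes caldesmon, which binds actin, tropomyosin and myosin and restrains the myosin ATPase until it is phosphorylated. Its level was 36.0 and 53.8 CPM in unwounded WT replicates 1 and 2, 111 and 161 in wounded WT replicates 1 and 2, 30.6 in unwounded *Grhl3*-cKO, and 47.4 and 35.9 in wounded *Grhl3*-cKO replicates 1 and 2. Both wounded WT libraries lay above the other 5, and of the wounded *Grhl3*-cKO libraries replicate 1 lay between the unwounded WT libraries and replicate 2 just under both. The mean was 44.9 ± 12.6 CPM (SD, n = 2) in unwounded WT and 136 ± 35.5 in wounded WT, 3.02-fold higher, and stood at 41.7 ± 8.13 in wounded *Grhl3*-cKO, which was 0.307 times the wounded WT mean. In the fit of all libraries, the log2 fold change was 1.62 (SE 0.25) for wounded against unwounded WT and -1.68 (SE 0.25) for wounded *Grhl3*-cKO against wounded WT. These bulk values do not tell fewer cells of a type apart from less RNA per cell.

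*Cnn2* (chr10:79988584-79996062) encodes calponin 2, an actin-binding protein of smooth muscle and nonmuscle cells that inhibits the myosin ATPase. Its level was 111 and 87.5 CPM in unwounded WT, 113 and 113 in wounded WT, 81.8 in unwounded *Grhl3*-cKO, and 88.2 and 115 in wounded *Grhl3*-cKO. The groups lay close together, and the wounded *Grhl3*-cKO libraries fell on both sides of wounded WT. Its fitted log2 fold change was 0.21 (SE 0.19) for the WT wound comparison and -0.14 (SE 0.19) for wounded *Grhl3*-cKO against wounded WT. The first was 0.40 without unwounded WT replicate 1 and 0.03 without replicate 2, and the second was 0.02 without wounded *Grhl3*-cKO replicate 1 and -0.29 without replicate 2.

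*Tagln2* (chr1:172500047-172507380) encodes transgelin 2, the actin-bundling transgelin found widely outside muscle. Its level was 459 and 491 CPM in unwounded WT, 412 and 474 in wounded WT, 343 in unwounded *Grhl3*-cKO, and 457 and 351 in wounded *Grhl3*-cKO. It alone of the 10 genes was not higher in both wounded WT libraries than in both unwounded ones, and its groups overlapped. Fitted log2 fold changes were -0.07 (SE 0.17) in WT and -0.11 (SE 0.17) between wounded genotypes, both within their errors. Their signs turned when 1 library was left out: the first was 0.03 without wounded WT replicate 1, and the second was 0.01 without wounded WT replicate 2 and 0.10 without wounded *Grhl3*-cKO replicate 2. The first ranged from -0.20 to 0.03 and the second from -0.34 to 0.10 over the libraries left out.

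*Tagln* (chr9:45929619-45936058) encodes transgelin, also called SM22, a marker of smooth muscle and myofibroblasts. It had 9 and 13 counts in unwounded WT, 198 and 13 in wounded WT, 14 in unwounded *Grhl3*-cKO, and 19 and 14 in wounded *Grhl3*-cKO, or 0.581, 0.773, 11.9, 0.843, 1.04, 1.25 and 0.980 CPM. A single library, wounded WT replicate 1, held 198 of these counts, and the other 6 had 9 to 19 each. The fitted log2 fold change of 3.24 (SE 1.06) in WT was 0.34 without that library. That of -2.47 (SE 1.02) for wounded *Grhl3*-cKO against wounded WT reversed to 0.42 without it, and without wounded WT replicate 2 the values were 4.12 and -3.36.

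*Acta2* (chr19:34241090-34255590) encodes smooth muscle alpha-actin, the actin isoform of smooth muscle and contractile fibroblasts. It had 9 and 39 counts in unwounded WT, 275 and 154 in wounded WT, 1 in unwounded *Grhl3*-cKO, and 11 and 64 in wounded *Grhl3*-cKO, or 0.581, 2.32, 16.5, 9.99, 0.0741, 0.723 and 4.48 CPM. Both wounded WT libraries lay above the other 5, and wounded *Grhl3*-cKO replicate 2 lay above both unwounded WT libraries while replicate 1 lay between them. The mean was 1.45 ± 1.23 CPM (SD, n = 2) in unwounded WT, 13.3 ± 4.61 in wounded WT and 2.60 ± 2.66 in wounded *Grhl3*-cKO. The fitted log2 fold change was 3.21 (SE 0.78) in WT, 2.54 without unwounded WT replicate 1 and 4.50 without unwounded WT replicate 2. Between wounded genotypes it was -2.35 (SE 0.74), -1.56 without wounded *Grhl3*-cKO replicate 1 and -4.12 without replicate 2.

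*Tpm1* (chr9:67022590-67049406) encodes tropomyosin 1, which gives rise to both muscle and cytoskeletal isoforms. Its level was 195 and 177 CPM in unwounded WT, 336 and 252 in wounded WT, 163 in unwounded *Grhl3*-cKO, and 178 and 204 in wounded *Grhl3*-cKO. Both wounded WT libraries lay above the other 5, and wounded *Grhl3*-cKO overlapped unwounded WT. The mean was 186 ± 12.6 CPM (SD, n = 2) in unwounded WT, 294 ± 59.4 in wounded WT and 191 ± 18.3 in wounded *Grhl3*-cKO, with fitted log2 fold changes of 0.69 (SE 0.17) and -0.60 (SE 0.17), the latter -0.39 without wounded WT replicate 1.

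*Tpm2* (chr4:43514711-43523765) encodes tropomyosin 2, the beta isoform. Its level was 235 and 226 CPM in unwounded WT, 243 and 290 in wounded WT, 116 in unwounded *Grhl3*-cKO, and 207 and 190 in wounded *Grhl3*-cKO. The single unwounded *Grhl3*-cKO library was the lowest, and both wounded *Grhl3*-cKO libraries lay below all 4 WT libraries. Its fitted log2 fold change was 0.24 (SE 0.17) in WT and -0.40 (SE 0.17) between wounded genotypes. Without wounded WT replicate 2 these were 0.09 and -0.25, and the first was 0.36 without wounded WT replicate 1.

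*Tpm4* (chr8:72134975-72153142) encodes tropomyosin 4, a cytoskeletal isoform of stress fibres. Its level was 607 and 673 CPM in unwounded WT, 798 and 806 in wounded WT, 445 in unwounded *Grhl3*-cKO, and 644 and 699 in wounded *Grhl3*-cKO. Wounded WT lay above the other 5 libraries, and wounded *Grhl3*-cKO overlapped unwounded WT. Its fitted log2 fold change was 0.35 (SE 0.15) in WT and -0.24 (SE 0.15) between wounded genotypes.

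*Myh9* (chr15:77760587-77842175) encodes the heavy chain of nonmuscle myosin IIA, the motor of the set. Its level was 2579 and 2562 CPM in unwounded WT, 3223 and 3034 in wounded WT, 1879 in unwounded *Grhl3*-cKO, and 2568 and 2475 in wounded *Grhl3*-cKO. As for *Tpm4*, wounded WT was highest and unwounded *Grhl3*-cKO lowest. The mean was 3128 ± 134 CPM (SD, n = 2) in wounded WT and 2522 ± 66.2 in wounded *Grhl3*-cKO, and the fitted log2 fold changes were 0.31 (SE 0.13) and -0.29 (SE 0.13). *Myh9* made up 59.0% to 61.4% of the summed CPM of the 10 genes in every library.

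*Myl9* (chr2:156775420-156781658) encodes a regulatory light chain of myosin II that is abundant in smooth muscle. It had 16 and 15 counts in unwounded WT, 83 and 23 in wounded WT, 2 in unwounded *Grhl3*-cKO, and 9 and 18 in wounded *Grhl3*-cKO, or 1.03, 0.892, 4.98, 1.49, 0.148, 0.591 and 1.26 CPM. Wounded WT replicate 1 stood above the rest, as it did for *Tagln*. The fitted log2 fold change of 1.76 (SE 1.14) in WT was 0.66 without that library and 2.37 without wounded WT replicate 2. Between wounded genotypes it was -1.79 (SE 1.15), -0.68 without wounded WT replicate 1, -2.39 without wounded WT replicate 2, and -2.37 without wounded *Grhl3*-cKO replicate 2.

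**Figure D1:**
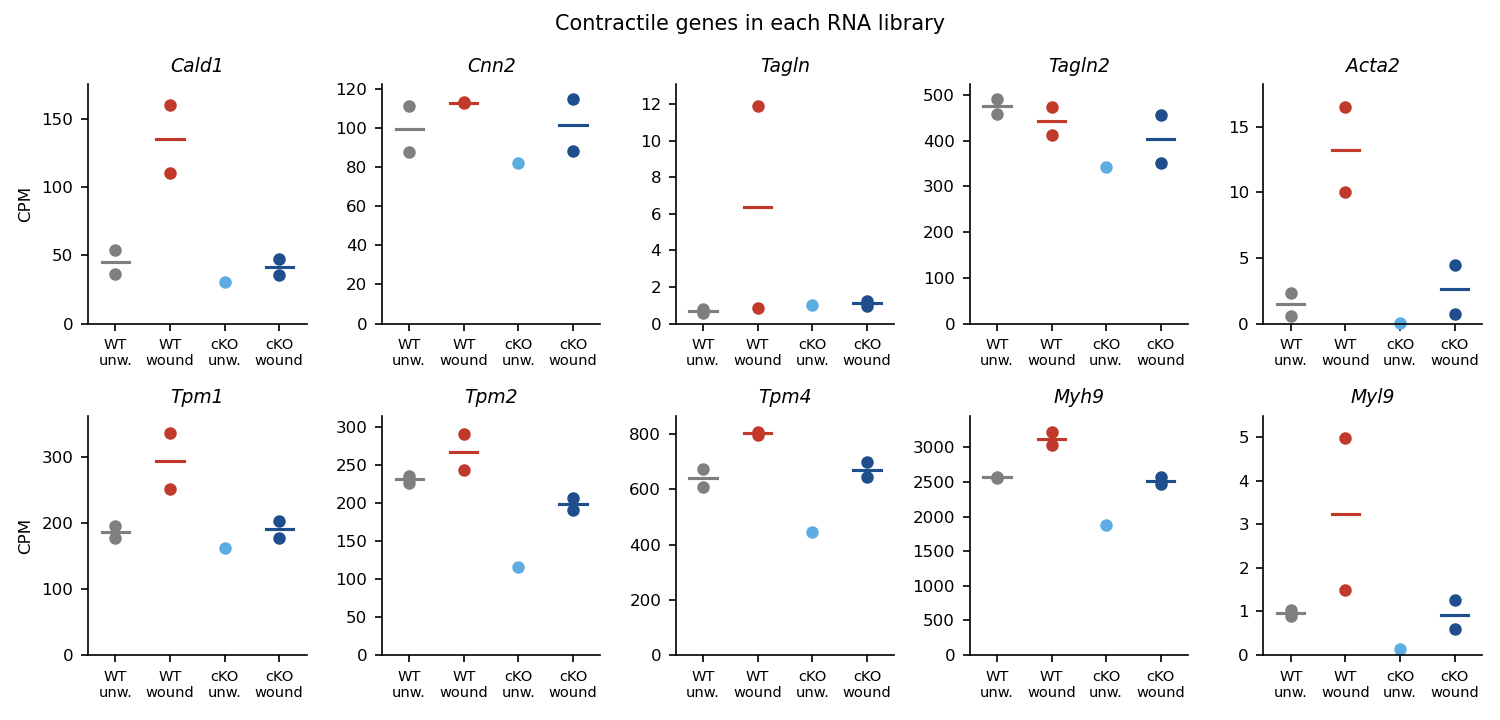
Level of each of the 10 contractile genes in CPM (vertical axis, linear from 0, a scale of its own per gene) in the 7 RNA libraries, with 1 point per library and a line at the mean of each group of 2. *Cald1* in wounded WT sits at 111 and 161 CPM and in every other library at 53.8 CPM or lower, and the high *Tagln* point is wounded WT replicate 1 alone.

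Across the 10 genes, 9 had both wounded WT libraries above both unwounded WT libraries, as had 15.2% of the genes tested, and 0 had both below, as had 18.3%. In wounded *Grhl3*-cKO, 7 of the 10 had both libraries below both of wounded WT, as had 17.2% of the genes tested. The choice of the genes rested on these comparisons, so nothing is read from the counts. The median fitted log2 fold change of the 10 was 0.52 in the WT wound comparison, beside 0.00 over all genes tested, and -0.50 between wounded genotypes, beside -0.01, the latter -0.32 without wounded WT replicate 1. Both comparisons use the same wounded WT libraries, so a high value in wounded WT moves both at once.

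**Figure D2:**
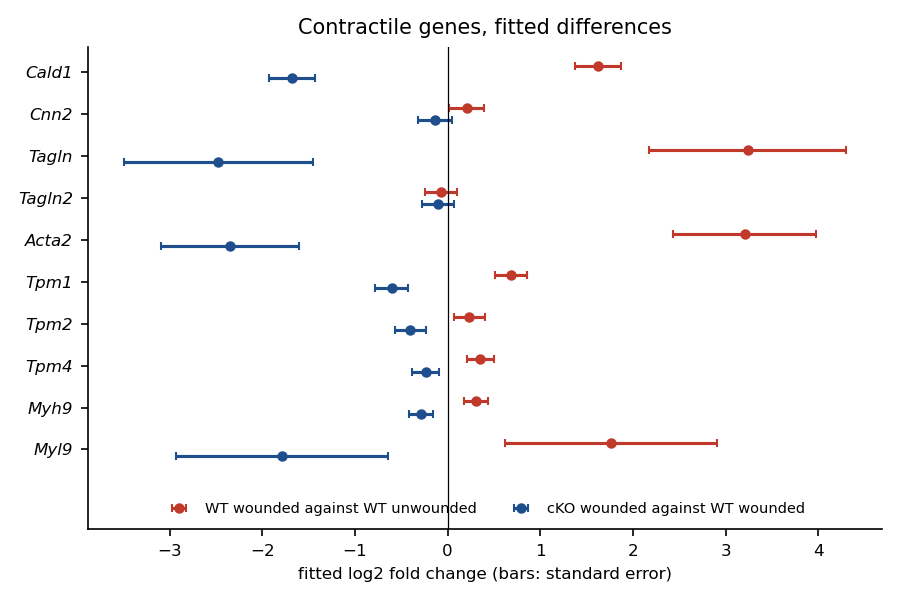
Fitted log2 fold change (horizontal axis) of the 10 contractile genes for wounded against unwounded WT (red) and wounded *Grhl3*-cKO against wounded WT (blue), with bars of 1 standard error from edgeR's fit. The widest bars belong to *Tagln*, *Acta2* and *Myl9*, the genes with the lowest counts, and both comparisons share the wounded WT libraries.

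Wounded *Grhl3*-cKO was also set beside the single unwounded *Grhl3*-cKO library, without a test. All 10 genes had a fitted log2 fold change above 0, as had 7290 of the 14045 genes tested, with a median of 0.43 beside 0.02 over all genes tested. *Tpm2* had the value 0.76, *Tpm4* 0.58, *Cald1* 0.44, *Myh9* 0.42, *Cnn2* 0.30, *Tagln2* 0.23, *Tpm1* 0.22 and *Tagln* 0.10. *Acta2* and *Myl9*, with 1 and 2 counts in the unwounded library, were at least 2-fold higher in both wounded libraries, as were 5.69% of the genes tested, a count that was 1 with a prior count of 5 and 0 with at least 10 counts in every library, and none of the 10 was at least 2-fold lower, as were 3.89%. The number of genes at least 2-fold different was 1346, and was 2567 without wounded replicate 1 and 2732 without wounded replicate 2. The unwounded *Grhl3*-cKO library was low for these genes, with a median log2 fold change of -0.44 against unwounded WT beside -0.01 over all genes tested. A difference in wound response between WT and *Grhl3*-cKO was not tested, since unwounded *Grhl3*-cKO had 1 library.

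Over all genes, the quasi-likelihood test of edgeR, adjusted by Benjamini-Hochberg, called 4 of 14045 (0.0285%) in wounded against unwounded WT. The count was 2 without unwounded WT replicate 1, 0 without unwounded WT replicate 2, 29 without wounded WT replicate 1, 8 without wounded WT replicate 2 and 0 without unwounded *Grhl3*-cKO replicate 2. DESeq2 called 24 and edgeR's likelihood ratio test 49. A fit of the 4 WT libraries alone called 0, and 183 with replicate number as a block, a setting chosen after seeing the data. Between wounded genotypes edgeR called 0 genes (0%), with 567 at an unadjusted P under 0.05 (855 without wounded WT replicate 2), while DESeq2 called 3 and edgeR's likelihood ratio test 1. Without wounded WT replicate 1 edgeR called 8, without wounded WT replicate 2 it called 21, and with a block that crosses the replicate numbers in the 4 libraries compared, chosen after seeing the data, it called 65. These p-values measure the spread between samples, since the labels do not say that each replicate is a separate animal. With 2 libraries on each side the smallest p of an exact permutation test is 0.333. Smaller values come from the variation that edgeR pools over genes, here a biological coefficient of variation of 31.6%.

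The wider machinery was read from 8 lists, among them actins, myosin II subunits, tropomyosins, actin side-binding proteins, light chain kinases and phosphatase, SRF cofactors and stress fibre proteins, which hold 76 genes outside the 10. Of these, 66 were tested. In wounded against unwounded WT, 9 of the 66 were higher at an unadjusted P under 0.05 in edgeR's test, beside 3.18% of all genes tested, and 0 were lower, beside 1.67%. In a fit of the 4 WT libraries alone, 6 of 60 were higher and 0 lower, and with the block 21 were higher and 1 lower. Between wounded genotypes 0 were higher, beside 1.96%, and 10 were lower, beside 2.08%, a count that was 4 without wounded WT replicate 1 and also 4 without wounded *Grhl3*-cKO replicate 2. After adjustment over all genes edgeR called 0 of the 66 in either comparison. The median log2 fold change of the 66 was 0.13 and -0.10, beside 0.00 and -0.01 over all genes tested. The lists were drawn up with earlier results known, so these counts are a description.

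Stress fibre and cross-linking proteins supplied more of these genes than any other list, with 4 of 15 higher in wounded WT and 6 of 15 lower in wounded *Grhl3*-cKO. *Actn1*, the actin cross-linker alpha-actinin 1, was at 286 and 336 CPM in unwounded WT, 370 and 456 in wounded WT, 147 in unwounded *Grhl3*-cKO, and 258 and 228 in wounded *Grhl3*-cKO. Its wounded *Grhl3*-cKO libraries lay below all 4 WT libraries, and its log2 fold change was -0.74 (unadjusted P = 0.000557, adjusted p = 0.783). In the WT wound comparison *Actn1* had 0.44 (unadjusted P = 0.0216), with P no longer under 0.05 without unwounded WT replicate 1 (0.34) or wounded WT replicate 2 (0.26).

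*Flna*, filamin A, which cross-links actin into networks, was at 674 and 722 CPM in unwounded WT, 998 and 998 in wounded WT, 483 in unwounded *Grhl3*-cKO, and 787 and 579 in wounded *Grhl3*-cKO. Wounded WT was above the other 5 libraries, with log2 fold changes of 0.54 (unadjusted P = 0.00610) in WT and -0.52 (unadjusted P = 0.00798) between wounded genotypes, the latter -0.28 with P no longer under 0.05 without wounded *Grhl3*-cKO replicate 2 and -0.79 without replicate 1.

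*Pdlim7*, a PDZ and LIM domain protein of stress fibres, had log2 fold changes of 0.69 (unadjusted P = 0.0399) and -0.77 (unadjusted P = 0.0247). Its WT value was 0.41 without unwounded WT replicate 2 and 0.43 without wounded WT replicate 1, both with P no longer under 0.05, as with DESeq2 and in a fit of only the 4 libraries compared, and its value between genotypes had P no longer under 0.05 without wounded WT replicate 1 (-0.51) or either wounded *Grhl3*-cKO library (-0.74 and -0.79). *Vcl*, the adhesion protein vinculin, had -0.62 (unadjusted P = 0.0146) between wounded genotypes, with -0.26 without wounded WT replicate 1 and -0.48 without wounded *Grhl3*-cKO replicate 2, both with P no longer under 0.05. *Lima1*, an actin-bundling LIM protein, had -0.37 (unadjusted P = 0.0364), with P no longer under 0.05 without wounded WT replicate 1 (-0.23) or either wounded *Grhl3*-cKO library (-0.39 and -0.35), with edgeR's likelihood ratio test, or in a fit of only the 4 libraries compared, with or without a block of the same replicate numbers. *Actn4*, the most abundant gene of this list, had 0.01 in WT and -0.09 between wounded genotypes, each under its standard error of 0.15.

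Among the relatives of caldesmon, calponin and transgelin, 3 of 5 tested genes were higher in wounded WT and 1 was lower in wounded *Grhl3*-cKO. *Limch1*, an activator of nonmuscle myosin II, was at 9.10 and 2.50 CPM in unwounded WT, 26.0 and 23.9 in wounded WT, 15.2 in unwounded *Grhl3*-cKO, and 23.5 and 25.3 in wounded *Grhl3*-cKO. In contrast to *Cald1*, its wounded libraries of both genotypes lay together, with log2 fold changes of 2.13 (unadjusted P = 0.00016) in WT, 3.35 without unwounded WT replicate 1 and 1.47 without replicate 2, and -0.01 between wounded genotypes. *Cnn3*, the acidic calponin, had 1.37 (unadjusted P = 0.00475) in WT and -0.12 between genotypes, and the former was 0.95 with P no longer under 0.05 without wounded WT replicate 1. *Smtnl2*, a smoothelin-like protein, had 1.86 (unadjusted P = 0.0471) from 6 and 34 counts in unwounded and 51 and 86 in wounded WT, and had P no longer under 0.05 without unwounded WT replicate 1 (1.13) or wounded WT replicate 2 (1.35), or in a fit of only the 4 libraries compared, and was 3.47 without unwounded WT replicate 2. *Smtn*, smoothelin, had -0.54 (unadjusted P = 0.0215) between wounded genotypes, with P no longer under 0.05 without wounded WT replicate 1 (-0.28) or wounded *Grhl3*-cKO replicate 2 (-0.45).

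SRF, with its actin-sensing cofactors, is the transcription factor known for driving many contractile genes through a sequence called the CArG box. *Srf* itself was the most abundant of its list, at 225 and 184 CPM in unwounded WT, 320 and 178 in wounded WT, 218 in unwounded *Grhl3*-cKO, and 174 and 207 in wounded *Grhl3*-cKO. Only wounded WT replicate 1 stood out, and the groups overlapped. *Fhl2*, a LIM protein that binds SRF, was at 18.9 and 26.2 CPM in unwounded WT, 51.3 and 36.4 in wounded WT, 5.63 in unwounded *Grhl3*-cKO, and 21.5 and 23.7 in wounded *Grhl3*-cKO. As for *Cald1*, both wounded WT libraries lay above all others and the unwounded *Grhl3*-cKO library was lowest. The wounded *Grhl3*-cKO libraries of *Fhl2* lay between those of unwounded WT. Its log2 fold changes were 0.98 (unadjusted P = 0.00229) and -0.93 (unadjusted P = 0.00341), the latter -0.67 with P no longer under 0.05 without wounded WT replicate 1. *Mkl1*, the cofactor MRTF-A, had -0.51 (unadjusted P = 0.0189) between wounded genotypes, with P no longer under 0.05 without wounded WT replicate 1 (-0.49) or wounded *Grhl3*-cKO replicate 2 (-0.39).

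Upstream of the light chains, 1 of 17 kinase and phosphatase genes was higher in wounded WT and 0 were lower in wounded *Grhl3*-cKO. The higher one, *Mylk3*, had 0 counts in unwounded WT and 0 and 39 in wounded WT, so it rests on wounded WT replicate 2, without which its log2 fold change was 0, and P was no longer under 0.05 without either unwounded WT library or with the block in the fit of all 7 libraries. *Rock1*, the most abundant of this list, had 0.16 (SE 0.16) and 0.02 (SE 0.16).

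The 4 tested actins, 5 myosin II subunits and 4 tropomyosins or tropomodulins outside the 10 had 0 genes at an unadjusted P under 0.05 in edgeR's test in either comparison. *Actg1*, cytoplasmic gamma-actin and the most abundant of the actins, was at 4568 and 4009 CPM in unwounded WT, 5209 and 4257 in wounded WT, 4422 in unwounded *Grhl3*-cKO, and 4750 and 3939 in wounded *Grhl3*-cKO. Its groups overlapped throughout. *Myl6*, the essential light chain, had a log2 fold change of 0.11 (SE 0.16) in WT and 0.00 (SE 0.16) between wounded genotypes, and *Tpm3* had 0.12 (SE 0.16) and -0.24 (SE 0.16).

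The genes whose log2 CPM over the 7 RNA libraries was most like that of *Cald1*, among 8879 genes, were *Mycbp* (Pearson's r 0.972), *2410127L17Rik* (0.957), *Actr3* (0.957), which encodes a subunit of the actin-branching Arp2/3 complex, *Exoc1* (0.956) and *Lrwd1* (0.947). These values are a description over libraries that share groups. Among the contractile genes, the r with *Cald1* was 0.832 for *Myh9*, 0.793 for *Tpm4*, 0.792 for *Acta2*, 0.790 for *Tpm1*, 0.729 for *Tpm2* and 0.664 for *Myl9*. It was lower for *Tagln2* (0.462), *Tagln* (0.448) and *Cnn2* (0.444). The contractile genes were chosen by their levels in these same libraries, so nothing is read from their r.

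Since *Acta2*, *Tagln* and *Myl9* are best known from other cell types, markers of those cells were summed in the same libraries. Smooth muscle and mural markers (15 of 15 measured, *Notch3* most abundant) summed to 244 and 238 CPM in unwounded WT, 235 and 209 in wounded WT, 295 in unwounded *Grhl3*-cKO, and 210 and 175 in wounded *Grhl3*-cKO. *Notch3* and *Cspg4*, both also known from keratinocytes, held most of that sum. Of the defining genes, *Myh11* had 5 counts in unwounded WT replicate 2, 31 in wounded WT replicate 1 and 0 in the other 5 libraries. *Des* had 2 counts in unwounded WT replicate 1, 23 in wounded WT replicate 2, and 27 and 50 in wounded *Grhl3*-cKO. *Abcc9* and *Higd1b* were at 0 in every library, *Rgs5* had 1 count in all, *Actg2*, *Kcnj8* and *Myocd* were found in wounded WT replicate 1 alone, with 1, 3 and 4 counts, and *Lmod1* had 12 counts in unwounded WT replicate 1 alone. *Cnn1* had 2 and 2 counts in unwounded WT, 3 and 0 in wounded WT, 0 in unwounded *Grhl3*-cKO, and 3 and 10 in wounded *Grhl3*-cKO. *Mcam*, the 1 gene of this list with an unadjusted P under 0.05 in the WT wound comparison, was at 4.20 and 3.63 CPM in unwounded WT, 8.29 and 13.3 in wounded WT, 1.93 in unwounded *Grhl3*-cKO, and 9.13 and 4.13 in wounded *Grhl3*-cKO.

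Endothelial markers (12 of 12 measured, *Vwf* most abundant) summed to 5.23 and 7.85 CPM in unwounded WT, 41.8 and 21.3 in wounded WT, 2.74 in unwounded *Grhl3*-cKO, and 16.1 and 25.7 in wounded *Grhl3*-cKO, although the sort removed CD31-positive cells. Wounded WT replicate 1 was the highest here as well, and 5 of 11 tested genes (*Pecam1*, *Cdh5*, *Kdr*, *Plvap* and *Ptprb*) were higher in wounded WT at an unadjusted P under 0.05. *Cdh5*, a defining gene, had 107 counts there and 0 in unwounded *Grhl3*-cKO. Fibroblast and myofibroblast markers (12 of 12 measured, *Postn* most abundant) summed to 1253 and 1466, 1267 and 1218, 1031, and 950 and 971 CPM in the same order. *Postn*, which is also in the hair follicle list, held most of that sum in every library, at 1131 and 1310, 1147 and 1040, 976, and 787 and 816 CPM. *Dcn* was at 0 counts in unwounded WT replicate 2 and unwounded *Grhl3*-cKO. Leukocyte markers (9 of 10 measured, *Cd74* most abundant) summed to 8.33 and 16.1, 15.0 and 36.6, 10.2, and 16.6 and 20.0 CPM, and *Ptprc*, which encodes CD45, was at 0 counts in 5 of the 7 libraries.

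The remaining lists were lower or moved otherwise. Skeletal muscle markers (8 of 8 measured, *Acta1* most abundant) summed to 4.45 and 3.81, 4.68 and 1.49, 0.741, and 1.31 and 6.16 CPM, and melanocyte markers (5 of 5 measured, *Dct* most abundant) to 2.52 and 0.952, 7.15 and 3.89, 1.48, and 5.85 and 5.81 CPM. Hair follicle markers (8 of 8 measured, *Krt15* most abundant) summed to 6887 and 6417, 5645 and 4648, 7637, and 4426 and 5316 CPM, with 4 of 8 (*Krt15*, *Cd34*, *Krt79* and *Lhx2*) lower in wounded WT at an unadjusted P under 0.05. In wounded *Grhl3*-cKO, 2 hair follicle markers (*Krt75* and *Postn*), 1 smooth muscle and mural marker (*Cspg4*) and 1 fibroblast marker (*Postn*, which is in both lists) were lower than in wounded WT at an unadjusted P under 0.05, the direction of the contractile genes. No endothelial, leukocyte, melanocyte, skeletal muscle or basal marker differed at that P in this comparison. In wounded WT, *Col1a2* of the fibroblast list, *Lyz2* and *Cd74* of the leukocyte list and *Dct* of the melanocyte list were higher at an unadjusted P under 0.05. The part of any of these cells in the levels of *Acta2*, *Tagln* and *Myl9* was not tested.

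Open chromatin was read as the deposited peaks in a gene or within 5 kb of it, with 1 library per condition and no test. The names of 3 of the 4 lists say that no control library was used, that of wounded *Grhl3*-cKO does not, and whether its peaks were called against a control is not given in the sources used here. The lists differed in length, with 10769 peaks in unwounded WT, 36872 in wounded WT, 29364 in unwounded *Grhl3*-cKO and 22474 in wounded *Grhl3*-cKO, so more genes had a peak in the longer lists. A peak lay at 5 of the 10 genes in unwounded WT, beside 50.7% of all genes tested and annotated, at 8 in wounded WT, beside 84.6%, at 8 in unwounded *Grhl3*-cKO, beside 81%, and at 7 in wounded *Grhl3*-cKO, beside 68.8%. These shares are near those of all genes and are not a result about the contractile genes. With each list held to its 10769 peaks of highest fold enrichment, the counts were 5, 4, 4 and 3, beside 50.7%, 45.1%, 47.5% and 45.5% of all genes.

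*Cald1*, which spans 177 kb, had 1 peak in unwounded WT, 9 in wounded WT, 4 in unwounded *Grhl3*-cKO and 4 in wounded *Grhl3*-cKO. The only one found in all 4 lists lay downstream of the gene, at chr6:34780186-34780920 in wounded WT, with a fold enrichment over local background of 4.25, 5.42, 4.91 and 4.60 in the same order. At its first annotated start, a peak was listed in wounded WT (chr6:34598243-34598711, 3.60-fold), unwounded *Grhl3*-cKO (chr6:34598183-34598631, 4.35-fold) and wounded *Grhl3*-cKO (chr6:34598259-34598919, 5.04-fold). At an internal start, a peak was listed in the wounded lists alone, at chr6:34709259-34709556 in WT (3.42-fold) and chr6:34709223-34709591 in *Grhl3*-cKO (3.76-fold). Chromatin at both starts was called open in wounded *Grhl3*-cKO, where the RNA of *Cald1* was at the level of unwounded WT. The first start was also called open in unwounded *Grhl3*-cKO, where that RNA was lowest, at 30.6 CPM. A link between these peaks and the RNA was not tested.

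Of the other genes, *Myh9* had 2, 5, 5 and 2 peaks, *Tagln2* 1, 4, 4 and 3, and *Tpm4* 1, 3, 3 and 2, in unwounded WT, wounded WT, unwounded *Grhl3*-cKO and wounded *Grhl3*-cKO. *Tpm2* had 1 peak in each list, within the gene, with a fold enrichment of 4.50, 5.02, 6.45 and 4.47. *Tpm1* had 0, 1, 4 and 0 peaks and *Cnn2* 0, 1, 1 and 1, upstream of the gene. *Acta2* had a peak of 1501 bases over its start and the adjoining part of the gene in wounded WT (chr19:34254167-34255667, 4.18-fold), and shorter peaks inside the gene in unwounded *Grhl3*-cKO (chr19:34254346-34254992, 4.17-fold, with another at chr19:34243966-34244289, 3.56-fold) and wounded *Grhl3*-cKO (chr19:34254232-34254762, 3.63-fold). *Tagln* and *Myl9* had no listed peak in any condition.

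**Figure D3:**
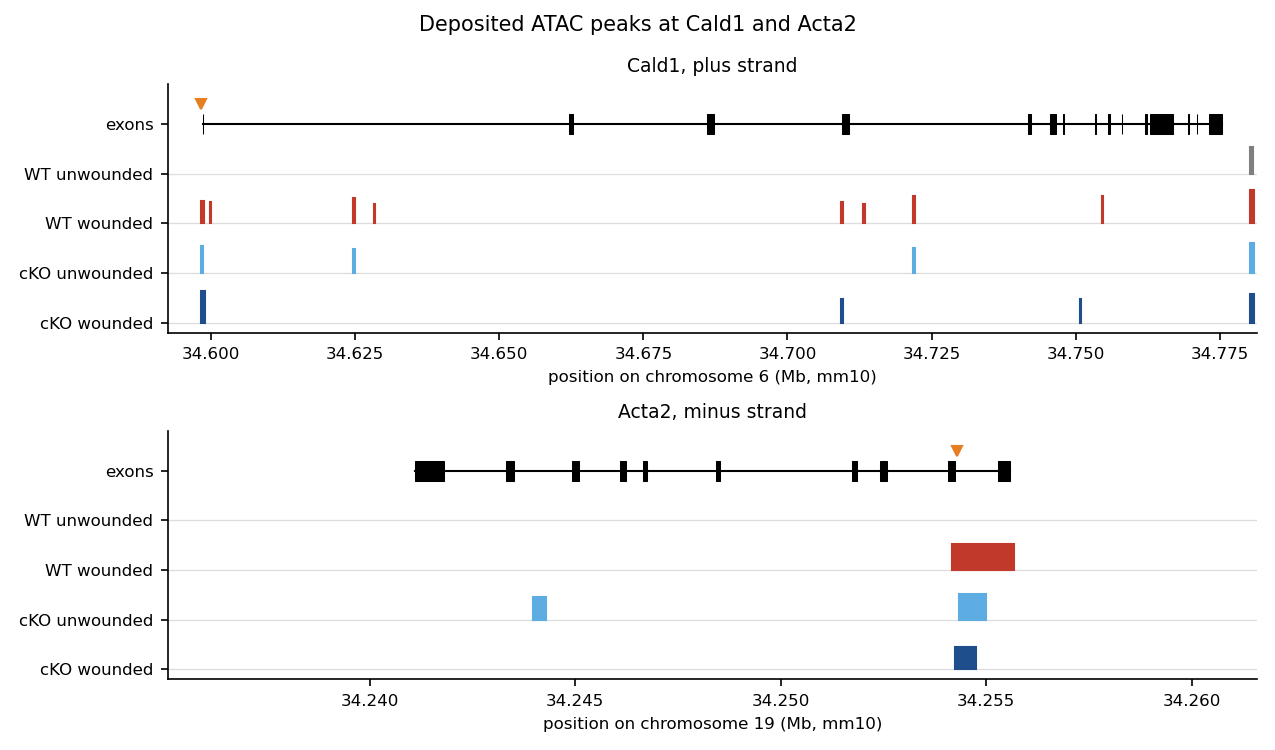
Deposited ATAC-seq peaks of the 4 conditions at *Cald1* and *Acta2*, drawn to scale along chromosomes 6 and 19 (horizontal axis, position in GRCm38), with bars of the height of the fold enrichment over local background, exons as boxes and CArG box matches as triangles. *Cald1* has 9 peaks in wounded WT and 1 in unwounded WT, and the wounded WT peak of *Acta2* alone reaches over the gene's start.

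Merging the 4 lists gave 42950 regions, 31 of them at the 10 genes. Of the 31, 17 lay in introns, 11 touched exons, 1 was upstream and 2 were downstream, and 9 covered an annotated start. Regions listed in wounded WT alone were 4 of 31 (12.9%) beside 22.9% of all regions, and regions listed in wounded WT and unwounded *Grhl3*-cKO but not in wounded *Grhl3*-cKO or unwounded WT were 8 (25.8%) beside 13.9%. Regions in all 4 lists were 5 (16.1%) beside 22.2%.

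The sequences under these regions were searched on both strands for the CArG box, for the AP-1 sequence TGANTCA and for the Grainyhead-like sequence AACCGGTT, which were chosen with the results known. In the 300 bases at the middle of each region, the CArG box was found in 1 of 31 beside 1.39% of all regions, TGANTCA in 10 of 31 beside 27.6%, and AACCGGTT in 0 of 31 beside 0.289%. Over their full length, 5 of the 31 regions held a CArG box beside 2.38% of all regions. They are shown with 50 bases on each side because they place the known SRF sequence in chromatin listed as open, on the strand of the gene and in build GRCm38.p6, with the CArG box in capitals. A match is a description, not a site or a cause.
Cald1 chr6:34598199-34598308: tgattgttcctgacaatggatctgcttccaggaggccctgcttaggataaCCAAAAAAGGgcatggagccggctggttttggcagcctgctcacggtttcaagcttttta
Tpm4 chr8:72136782-72136891: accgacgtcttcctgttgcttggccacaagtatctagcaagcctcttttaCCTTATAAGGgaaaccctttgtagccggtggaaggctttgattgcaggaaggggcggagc
Myh9 chr15:77798886-77798995: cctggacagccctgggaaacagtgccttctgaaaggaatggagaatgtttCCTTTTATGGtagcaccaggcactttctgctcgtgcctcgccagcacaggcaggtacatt
Myh9 chr15:77842588-77842697: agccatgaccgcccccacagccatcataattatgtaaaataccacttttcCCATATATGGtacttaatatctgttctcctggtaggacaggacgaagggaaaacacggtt
Acta2 chr19:34254238-34254347: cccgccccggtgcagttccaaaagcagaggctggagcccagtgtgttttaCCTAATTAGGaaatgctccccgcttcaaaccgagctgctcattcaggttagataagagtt

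The *Cald1* match lay 251 bases before the first annotated start, inside the peaks of wounded WT and unwounded *Grhl3*-cKO, and the wounded *Grhl3*-cKO peak began at the next base, 34598259. The *Acta2* match was intronic, inside the peaks of wounded WT and wounded *Grhl3*-cKO. *Myh9* had a match 463 bases before its start, inside the peaks of wounded WT and wounded *Grhl3*-cKO, and an intronic match inside a peak of all 4 lists. The *Tpm4* match was intronic and inside a wounded WT peak, and a wounded *Grhl3*-cKO peak (chr8:72136403-72136837) covered its first bases. *Cald1* and *Tpm4* are on the plus strand, *Myh9* and *Acta2* on the minus strand.

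RefSeq promoters, 250 bases before to 50 after the start, were matched for 9 of the 10 genes, with 10 promoters in all. The gene without an entry was *Tagln*. The CArG box was in 2 of the 10 beside 1.63% of the 32851 promoters of the table, TGANTCA in 1, at the internal start of *Cald1*, beside 7.81%, and AACCGGTT in 0 beside 0.146%. The 2 promoters with a CArG box, in capitals 161 bases before the start of *Myl9* and 56 bases before that of *Cnn2*, are shown because no peak was listed over either of them. Both are on the plus strand of GRCm38.p6.
Myl9 chr2:156775214-156775513: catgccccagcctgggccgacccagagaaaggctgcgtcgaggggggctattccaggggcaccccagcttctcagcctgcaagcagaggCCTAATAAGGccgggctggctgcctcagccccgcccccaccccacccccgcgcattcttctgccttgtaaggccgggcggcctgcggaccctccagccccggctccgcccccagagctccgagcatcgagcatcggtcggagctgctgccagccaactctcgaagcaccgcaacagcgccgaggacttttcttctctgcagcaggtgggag
Cnn2 chr10:79988350-79988649: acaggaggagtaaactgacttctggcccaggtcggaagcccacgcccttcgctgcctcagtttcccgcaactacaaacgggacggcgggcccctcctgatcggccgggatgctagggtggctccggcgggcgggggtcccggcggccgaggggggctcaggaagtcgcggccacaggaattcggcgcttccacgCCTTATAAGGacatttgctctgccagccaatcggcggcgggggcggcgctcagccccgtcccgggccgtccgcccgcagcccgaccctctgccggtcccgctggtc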

How the data were processed

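RNA was measured in 7 libraries and open chromatin in 4 libraries of sorted mouse keratinocytes. The deposited RNA tables hold raw counts per gene symbol in mm10, and the processing notes of the authors name FastQC and kallisto, but the step that made the counts is not given in the sources used here. The deposited peak lists give for each broad peak a score, the fold enrichment over local background as a ratio, -log10 p and -log10 q. By the methods of the authors, the ATAC-seq reads were trimmed with Trimmomatic and aligned with bowtie2, and MACS2 called the peaks, for 3 of the 4 lists without a control by their names. Lists called separately differ with the depth of each library, for which the methods of the authors give only a lower bound common to all samples.

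Reads in classes not assigned to a gene were left out of the totals (13497283 to 16807451 counts). Of these libraries 3.46% to 4.74% of reads were not uniquely placed and 1.34% to 1.45% were ambiguous. edgeR 4.0.16 in R 4.3.3 fitted all 7 libraries in 4 groups (TMM, filterByExpr, quasi-likelihood test, 2-sided, Benjamini-Hochberg over 14045 genes). Wounded against unwounded WT and wounded *Grhl3*-cKO against wounded WT were tested. Wounded against unwounded *Grhl3*-cKO was read by a 2-fold rule on log2 CPM with a prior count of 2, met by both wounded libraries. Peaks were assigned to GENCODE genes extended by 5 kb, and sequences were read from GRCm38.p6 with pysam 0.24.0. Exon length is the union of all annotated exons.

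The 10 genes, the pathway lists and the marker lists were chosen with earlier results of these data known. Named were the 10 genes, each gene of the pathway lists with an unadjusted P under 0.05 and the most abundant gene of each list, from the marker lists the most abundant gene and defining markers at 0 in a library, the 5 genes most correlated with *Cald1* among those with a mean log2 CPM of at least 3, *Grhl3*, *Xist* and 4 Y-linked genes. Some genes of the pathway lists are counted but not reported here. *Myl6*, *Tpm3* and the marker genes named for an unadjusted P under 0.05 were named after their values were seen. Alternatives were DESeq2 1.42.0, the likelihood ratio test, no filter, a minimum of 10 counts per library, other prior counts, the 4 compared libraries alone, replicate blocks, leaving out each library, and other peak thresholds and distances.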

Additional observations from a re-analysis of the deposited data

Results flagged for a closer look

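Among the wider contractile genes reported here, 5 had both wounded libraries on one side of unwounded in WT and on the other side in *Grhl3*-cKO. The share of all genes tested with such opposite sides was not counted, so nothing is read from this number. In WT alone, both wounded libraries lay above both unwounded ones in 15.2% of the genes tested and below in 18.3%. Each *Grhl3*-cKO value rests on 1 unwounded library, and the difference between the genotypes was not tested. The SRF cofactor *Mkl1* had a fitted log2 fold change of wounded against unwounded of 0.16 in WT and -0.28 in *Grhl3*-cKO. *Ppp1r12a*, the targeting subunit of myosin phosphatase, had 0.32 and -0.16, and the kinase *Cdc42bpa* had 0.14 and -0.24. *Dapk3*, a light chain kinase, had -0.41 in WT and 0.026 in *Grhl3*-cKO, and *Synpo*, which encodes synaptopodin, had -0.06 and 0.996. None of the 10 contractile genes showed such opposite sides.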

How the results depend on the processing

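In wounded against unwounded WT, the 4 genes with an adjusted p under 0.05 became 24 with DESeq2, 49 with edgeR's likelihood ratio test, 96 with no filter on low counts, 0 with at least 10 counts in every library, 0 in a fit of only the 4 libraries compared, and 0 to 29 when 1 library was left out. Same-numbered libraries of both WT conditions deviated alike (correlation 0.33 over genes). With replicate number as a block in a fit of those 4 libraries, chosen after seeing the data, the adjusted count was 183 beside 0 without the block, and it was 6 beside 4 with the block in the fit of all 7 libraries. The wider contractile genes at an unadjusted P under 0.05 were 9 of 66 with all 7 libraries and 10 with the block, 6 of 60 with the 4 libraries and 22 (21 higher, 1 lower) with the block, and 6 to 13 with 1 library left out. As the only library of its group, unwounded *Grhl3*-cKO has a coefficient of its own in these fits whichever replicate number it is given.

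Between wounded genotypes, the 0 genes with an adjusted p under 0.05 (edgeR, 567 at an unadjusted P under 0.05) became 3 with DESeq2, 1 with the likelihood ratio test, 51 with no filter, and 0 to 21 with 1 library left out. The deviations of same-numbered libraries had a weak negative correlation over genes here (-0.13). A block that crosses the numbers, a pairing that the labels do not give, was added after seeing the data and gave 65. A block of the same numbers gave 0 with all 7 libraries and 0 with the 4 compared. The 10 wider contractile genes at an unadjusted P under 0.05 were 4 to 13 with 1 library left out. *Tagln* reversed from -2.47 to 0.42 without wounded WT replicate 1 (-3.36 to 0.42 over the libraries left out).

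With at least 10 counts in every library, *Tagln*, *Acta2* and *Myl9* were lost, and the median log2 fold change of the remaining 7 contractile genes was 0.31 instead of 0.52 in WT and -0.29 instead of -0.50 between wounded genotypes. With 1 library left out, these medians were 0.36 to 0.60 and -0.55 to -0.32. The 1346 genes at least 2-fold different in *Grhl3*-cKO were 460 with that filter and 2567 to 2732 with 1 wounded library left out. Contractile genes with a peak at a fold enrichment of at least 4 were 3 in unwounded WT (34.9% of all genes), 5 in wounded WT (69.3%), 6 in unwounded *Grhl3*-cKO (58.1%) and 5 in wounded *Grhl3*-cKO (57.0%), and they were 4 in wounded WT, 4 in unwounded *Grhl3*-cKO and 3 in wounded *Grhl3*-cKO in lists of equal length.

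Of the fitted values of the 10 genes under all alternatives, 248 moved by less than the replicate SD, 3 of them (*Tagln2* in 2 and *Cnn2* in 1, near 0) with a change of sign, 15 moved by more, 1 of them (*Tagln2*) with a change of sign, and *Tagln* reversed as above. Of those of the wider genes at an unadjusted P under 0.05, 208 kept their direction and their side of 0.05 and 45 had P no longer under 0.05, 44 with the same direction and *Mylk3* at 0 without wounded WT replicate 2. Leaving out unwounded *Grhl3*-cKO replicate 2 was added after seeing the data, and where an arm is left with 1 library, that library is assumed to vary like the others. The cause of these changes was not tested, apart from the lower number of genes or libraries in some settings. Depth limits *Tagln*, *Acta2* and *Myl9*, which had 1 to 39 counts in most libraries, and 2 libraries a group limit every test. Comparisons with the lone unwounded *Grhl3*-cKO library and between single ATAC-seq libraries were not tested.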
